A study of Mus musculus with 8 samples.

Results

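Fatty acid synthesis and desaturation in the mouse brain cortex was followed through 10 genes, taken from the expression values by their gene names: Acly, Acaca, Fasn, Elovl6, Elovl1, Elovl5, Scd1, Scd2, Fads1 and Fads2. All 10 were present among the 13996 genes with values, and all 10 were among the 13982 genes tested. Cortexes of 8 male C57BL/6 mice were sequenced, 4 from mice kept on a normal (conventional) diet and 4 from mice given a diet with 60% fat by weight. The diets began at 8 weeks of age, lasted 8 weeks and ended with the removal of the cortex at 16 weeks. No mouse carried a genetic change, both diets used the same strain and sex, and each mouse gave 1 library, so the p-values measure the spread between mice. Transcript levels were given as FPKM, sequenced fragments scaled by transcript length and by the size of the library, which allows levels to be set side by side between genes as well as between mice.

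Fatty acids are made in the cytosol from citrate that leaves the mitochondrion. Acly (ATP citrate lyase) turns it into acetyl-CoA, Acaca (acetyl-CoA carboxylase alpha) turns acetyl-CoA into malonyl-CoA, and Fasn (fatty acid synthase) joins these units into palmitate. Elongases of the Elovl family then lengthen the chain in the endoplasmic reticulum, stearoyl-CoA desaturases (Scd) place a double bond in saturated chains to give oleate, and Fads desaturases work with elongases on polyunsaturated chains. In the brain these lipids go into the membranes of all cells and in large amounts into myelin, the sheath made by oligodendrocytes.

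On the high fat diet, 6 of the 10 genes were lower and none was higher. The 6 were Scd1, Elovl1, Elovl6, Elovl5, Scd2 and Acly, in order of the size of the fall, and mean FPKM fell by between 10.5% (Acly) and 32.8% (Scd1). Acaca, Fasn, Fads1 and Fads2 did not pass the test. A gene was called where limma's adjusted p, by the Benjamini-Hochberg method over all 13982 genes, was under 0.05. By that rule 33.1% of all genes were called, 15.3% lower and 17.7% higher, so a call was common in these data and 6 of 10 is to be read against that share. The median log2 fold change of the 10 genes was -0.22, against 0.00 over all genes tested. None of the 6 calls went with a change over 50% (1.5 times in either direction), which 7.13% of all genes reached. In 5 of the 10 genes no mouse of one diet fell within the range of the other, and this held for 31.9% of all genes.

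The summed FPKM of the 10 genes was 607 ± 42.1 (SD, n = 4) on the normal diet and 523 ± 18.9 (SD, n = 4) on the high fat diet. In single mice the sum was 587.9, 639.6, 642.9 and 556.1 on the normal diet and 517.8, 516.2, 549.8 and 506.4 on the high fat diet, so the 4 highest sums were those of the normal diet. Scd2 alone made up between 44.3% and 48.1% of the sum in the 8 mice. Without it the sums were 321 ± 16.4 and 287 ± 5.49 (SD, n = 4 each).

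**Figure D1:**
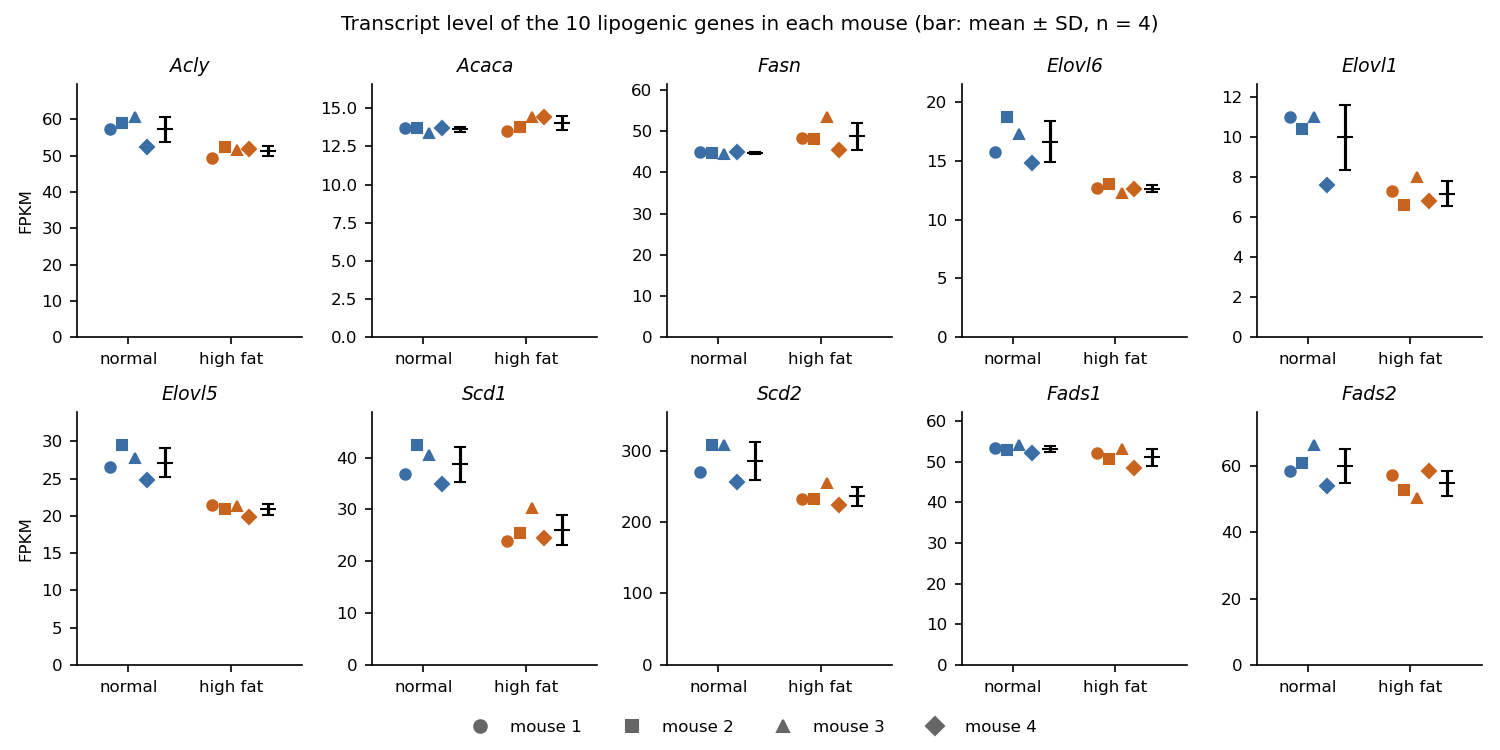
FPKM of the 10 genes on a linear axis from 0, 1 panel per gene, with 1 point per mouse (blue, normal diet; orange, high fat diet; shape, mouse number) and the mean ± SD of 4 mice beside them. All 4 high fat diet mice lie below all 4 normal diet mice for Elovl6, Elovl5, Scd1 and Scd2 and above them for Fasn.

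In the GRCm38 assembly with the GENCODE M21 annotation, Acly lies at chr11:100476353-100528000 on the minus strand, Acaca at chr11:84129672-84401651 on the plus strand and Fasn at chr11:120805846-120824547 on the minus strand. Elovl6 lies at chr3:129532355-129638495, Elovl1 at chr4:118428093-118432953 and Elovl5 at chr9:77917364-77984519, all on the plus strand. Scd1 (chr19:44394455-44407879, minus) and Scd2 (chr19:44293674-44306864, plus) are 87590 bp apart, and Fads1 (chr19:10182888-10196877, plus) and Fads2 (chr19:10062765-10101746, minus) are 81141 bp apart, both pairs on opposite strands. Of the stretches of 100 bases in Acaca transcripts, 23.7% also occur in transcripts of Gm42553 or Gm5182, the largest share of the 10 genes. How reads from such stretches were assigned in the authors' values was not tested. The share was 2.58% for Scd1 (with Scd2, Scd3, Scd4 and AC123853.3), 0.88% for Scd2 (with Scd1 and Scd3), 0.87% for Elovl6 (with Gm11295) and 0 for the other genes.

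These promoters are shown because they let the sequence ahead of 3 of the genes that fell, Elovl5, Elovl1 and Acly, be read beside that of Fasn, which did not fall. Each is the 250 bases before the transcript start in RefSeq (GRCm38.p6), read 5′ to 3′ on the strand of the gene: chr9:77917115-77917364 (plus) for Elovl5, chr4:118427843-118428092 (plus) for Elovl1, chr11:100528001-100528250 (minus) for Acly and chr11:120824548-120824797 (minus) for Fasn. Capitals mark every match on either strand to the CCAAT box (CCAAT), the GC box (GGGCGG), the E-box (CACGTG) or the sterol regulatory element (TCACNCCAC).
Elovl5: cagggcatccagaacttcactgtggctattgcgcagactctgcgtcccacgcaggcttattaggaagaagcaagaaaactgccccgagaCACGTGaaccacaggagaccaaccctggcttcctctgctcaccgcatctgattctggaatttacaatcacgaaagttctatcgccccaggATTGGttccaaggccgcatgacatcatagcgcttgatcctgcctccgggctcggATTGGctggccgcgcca
Elovl1: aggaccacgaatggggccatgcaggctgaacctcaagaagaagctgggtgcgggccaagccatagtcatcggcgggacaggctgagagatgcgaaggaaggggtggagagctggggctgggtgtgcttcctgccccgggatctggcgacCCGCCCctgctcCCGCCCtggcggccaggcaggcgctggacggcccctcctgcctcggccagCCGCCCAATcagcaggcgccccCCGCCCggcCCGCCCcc
Acly: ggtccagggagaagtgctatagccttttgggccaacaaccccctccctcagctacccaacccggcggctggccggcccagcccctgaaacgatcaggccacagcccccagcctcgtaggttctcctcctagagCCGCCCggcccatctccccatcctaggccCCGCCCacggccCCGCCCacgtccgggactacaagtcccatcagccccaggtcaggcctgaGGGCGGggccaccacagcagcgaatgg
Fasn: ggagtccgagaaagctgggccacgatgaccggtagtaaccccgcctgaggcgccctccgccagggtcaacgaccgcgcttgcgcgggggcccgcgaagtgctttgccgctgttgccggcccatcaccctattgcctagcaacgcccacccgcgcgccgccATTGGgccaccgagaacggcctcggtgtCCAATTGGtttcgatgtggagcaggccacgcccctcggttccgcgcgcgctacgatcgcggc

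Promoters were at hand for 7 of the 10 genes, all but Scd1, Scd2 and Fads1. An E-box lay in that of Elovl5, and in 6.02% of all 32851 promoters of the same length. A CCAAT box lay in those of Fasn, Elovl1 and Elovl5 (33.8% of all), and a GC box in those of Acly, Fads2 and Elovl1 (32.7% of all). SREBP factors bind lipogenic promoters by sterol regulatory elements. The 1 pattern searched for them, TCACNCCAC, was matched in none of the 7 and in 1.05% of all promoters. Sites with other letters were not searched, so no match does not mean that such an element is absent. No motif was matched in the window of Elovl6, which also fell, or in that of Acaca. The Elovl6 window (chr3:129532136-129532385) is not printed because it reaches into the annotated gene. The Acaca window (chr11:84195188-84195437) lies inside its annotated gene, and so does most of that of Fads2 (chr19:10101504-10101753). A match or its absence there does not describe sequence ahead of the annotated gene. The last base of the printed Elovl5 window is the first base of its annotated gene. Elovl1 has a second RefSeq start inside the annotated gene, whose window (chr4:118429451-118429700, plus, not printed) holds 2 GC boxes and no CCAAT box. In the printed Elovl1 window a GC box runs into the CCAAT box, and in Fasn 2 CCAAT boxes on opposite strands overlap. A match of letters is a description of the window and not a bound site.

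Of the 3 enzymes that make palmitate, Acly was lower, while Acaca and Fasn were not. Acly measured 57.2, 58.9, 60.5 and 52.5 FPKM in normal diet mice 1 to 4 and 49.2, 52.5, 51.5 and 51.8 FPKM in high fat diet mice 1 to 4. Normal diet mouse 4 and high fat diet mouse 2 shared the value of 52.5, and the other mice were apart by diet. The log2 fold change was -0.16 ± 0.05 (SE), with limma's adjusted p = 0.0394. This call was held in 1 of the 8 fits that left out 1 mouse, with adjusted p-values from 0.0111 to 0.103, and is the weakest of the 6.

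Acaca, which sets the pace of the pathway by making malonyl-CoA, measured 13.7, 13.7, 13.4 and 13.7 FPKM on the normal diet and 13.5, 13.8, 14.4 and 14.4 FPKM on the high fat diet. The ranges overlapped, and the log2 fold change of 0.04 ± 0.04 (SE) had a 95% interval from -0.06 to 0.14 (limma, adjusted p = 0.507). Its normal diet values spread by a coefficient of variation of 1.10%.

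Fasn measured 44.8, 44.6, 44.5 and 45.0 FPKM on the normal diet and 48.3, 48.0, 53.3 and 45.4 FPKM on the high fat diet. Every high fat diet mouse was above every normal diet mouse, mouse 4 by only a small margin. The log2 fold change was 0.12 ± 0.05 (SE), its 95% interval ran from 0.01 to 0.24, and limma's adjusted p was 0.0939 (unadjusted p = 0.0394). It passed the threshold only without high fat diet mouse 4 (adjusted p = 0.0489). The ratio of Fasn to Acaca was 3.28 ± 0.03 (SD, n = 4) on the normal diet and 3.48 ± 0.235 (SD, n = 4) on the high fat diet, with an exact permutation p of 0.143 (adjusted over 4 ratios, 0.286).

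All 3 elongases were lower. Elovl6, which extends palmitate to stearate, measured 15.8, 18.7, 17.3 and 14.8 FPKM on the normal diet and 12.7, 13.0, 12.3 and 12.6 FPKM on the high fat diet. The diets did not overlap, and the 4 high fat diet mice varied by an SD of 0.289 FPKM against 1.71 FPKM on the normal diet. The log2 fold change was -0.39 ± 0.07 (SE), with limma's adjusted p = 0.00403, and the call held in 8 of 8 fits without 1 mouse.

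Elovl5, which extends polyunsaturated chains, measured 26.6, 29.5, 27.8 and 24.8 FPKM on the normal diet and 21.5, 21.0, 21.3 and 19.8 FPKM on the high fat diet. Here too the diets were apart in every mouse, with a log2 fold change of -0.38 ± 0.06 (SE; limma, adjusted p = 0.00216) that held in 8 of 8 fits. The ratio of Elovl6 to Elovl5 was 0.612 ± 0.0195 (SD, n = 4) on the normal diet and 0.606 ± 0.0267 (SD, n = 4) on the high fat diet. No difference between the diets was detected in this ratio (exact permutation p = 0.657, also after adjustment).

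Elovl1, which extends saturated chains to the very long chains of sphingolipids, was the lowest of the 10 genes in both diets. It measured 11.0, 10.4, 11.0 and 7.6 FPKM on the normal diet and 7.3, 6.6, 8.0 and 6.8 FPKM on the high fat diet. Normal diet mouse 4 stood with the high fat diet mice, below high fat diet mouse 3. The log2 fold change was -0.46 ± 0.12 (SE; limma, adjusted p = 0.0174), and it was not called without high fat diet mouse 2 (adjusted p = 0.0520). Its exons overlap those of Cdc20 on the opposite strand by 53 bp.

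Both stearoyl-CoA desaturases fell, and Scd1 had the largest fall of the 10 genes. Scd1 measured 36.9, 42.4, 40.6 and 34.9 FPKM on the normal diet and 24.0, 25.5, 30.2 and 24.4 FPKM on the high fat diet. The diets did not overlap, although high fat diet mouse 3 was nearer to the normal diet mice than the others. The log2 fold change was -0.57 ± 0.09 (SE), with a 95% interval from -0.76 to -0.38 and limma's adjusted p = 0.00173. The call held in 8 of 8 fits without 1 mouse.

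Scd2, the main stearoyl-CoA desaturase of the brain, was by far the most abundant of the 10 transcripts. It measured 270.0, 307.5, 307.4 and 256.7 FPKM on the normal diet and 231.7, 232.2, 255.3 and 224.4 FPKM on the high fat diet. The diets were just apart, normal diet mouse 4 and high fat diet mouse 3 being nearest. The log2 fold change was -0.27 ± 0.07 (SE; limma, adjusted p = 0.0185), and it was not called without normal diet mouse 2 (adjusted p = 0.0532).

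The ratio of Scd2 to Scd1 was 7.32, 7.25, 7.57 and 7.36 in the normal diet mice and 9.65, 9.11, 8.45 and 9.20 in the high fat diet mice. All 4 high fat diet mice were above all 4 normal diet mice, with means of 9.10 ± 0.495 and 7.37 ± 0.138 (SD, n = 4 each). On the log2 scale the ratio differed by 0.30. The exact permutation p was 0.0286, the smallest that 4 against 4 mice can give, and 0.114 after adjustment over the 4 ratios. When only 1 ratio reaches that smallest p, its adjusted value cannot fall under 0.05. The adjusted test therefore could not decide whether Scd1 fell more than Scd2.

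**Figure D2:**
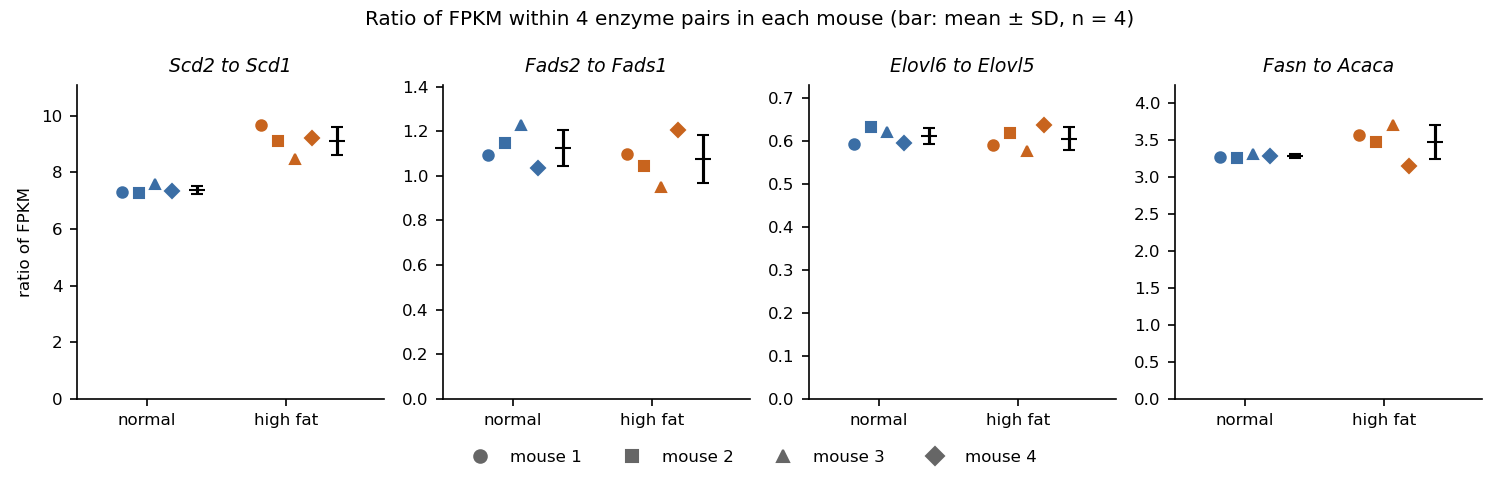
Ratio of FPKM within 4 enzyme pairs on a linear axis from 0, 1 point per mouse (blue, normal diet; orange, high fat diet; shape, mouse number), with the mean ± SD of 4 mice. The ratio of Scd2 to Scd1 separates the diets (7.37 against 9.10), and the other 3 ratios overlap.

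Fads1 and Fads2, which act in the synthesis of long polyunsaturated fatty acids from dietary linoleic and linolenic acid, did not pass the test. Fads1 measured 53.5, 53.0, 54.1 and 52.1 FPKM on the normal diet and 52.3, 50.7, 53.1 and 48.4 FPKM on the high fat diet, and the ranges overlapped. Its log2 fold change was -0.06 ± 0.04 (SE), with a 95% interval from -0.15 to 0.04 (limma, adjusted p = 0.317). Fads2 measured 58.4, 60.9, 66.3 and 54.0 FPKM on the normal diet and 57.3, 52.9, 50.4 and 58.4 FPKM on the high fat diet. Its ranges overlapped too, with a log2 fold change of -0.13 ± 0.07 (SE) and a 95% interval from -0.29 to 0.03 (limma, adjusted p = 0.191). A fall of Fads2 as large as that of Scd2 is inside this interval. The ratio of Fads2 to Fads1 was 1.13 ± 0.0809 and 1.07 ± 0.107 (SD, n = 4 each; exact permutation p = 0.486, adjusted 0.648).

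Ordered by mean FPKM on the normal diet, the genes ran Scd2, Fads2, Acly, Fads1, Fasn, Scd1, Elovl5, Elovl6, Acaca and Elovl1. The values of single mice overlapped between Fads2 and Acly and between Acly and Fads1, and other neighbours were apart. On the high fat diet Acaca (14.0 ± 0.45 FPKM, SD, n = 4) stood above Elovl6 (12.7 ± 0.289 FPKM), where it had stood below it on the normal diet (13.6 ± 0.15 against 16.7 ± 1.71 FPKM). There Fads1 and Fasn overlapped as well (51.1 ± 2.07 and 48.8 ± 3.30 FPKM).

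Among the 13982 genes, those whose profile over the 8 mice was most like that of Scd1 were Gabrd, a GABA receptor subunit, Phldb1 and Bcat1, a cytosolic branched-chain aminotransferase. After each gene was centred on its mean log2 value, they differed from Scd1 by a root mean square of 0.07 over the 8 mice. Gabrd fell from a mean of 42.2 to 27.4 FPKM, Phldb1 from 28.3 to 19.1 FPKM and Bcat1 from 28.6 to 20.2 FPKM. Since the diets separate all 4 genes, this likeness includes the difference between diets.

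Of 57 further genes of the pathway, 51 were tested: 17 were lower, 8 were higher and 26 did not pass the test. Over all genes tested 33.1% were called, 15.3% lower and 17.7% higher. The counts here and in each list that follows are to be read against those shares. Their median log2 fold change was -0.05. Elovl7 and Thrsp were the 2 with a change over 50%.

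**Figure D3:**
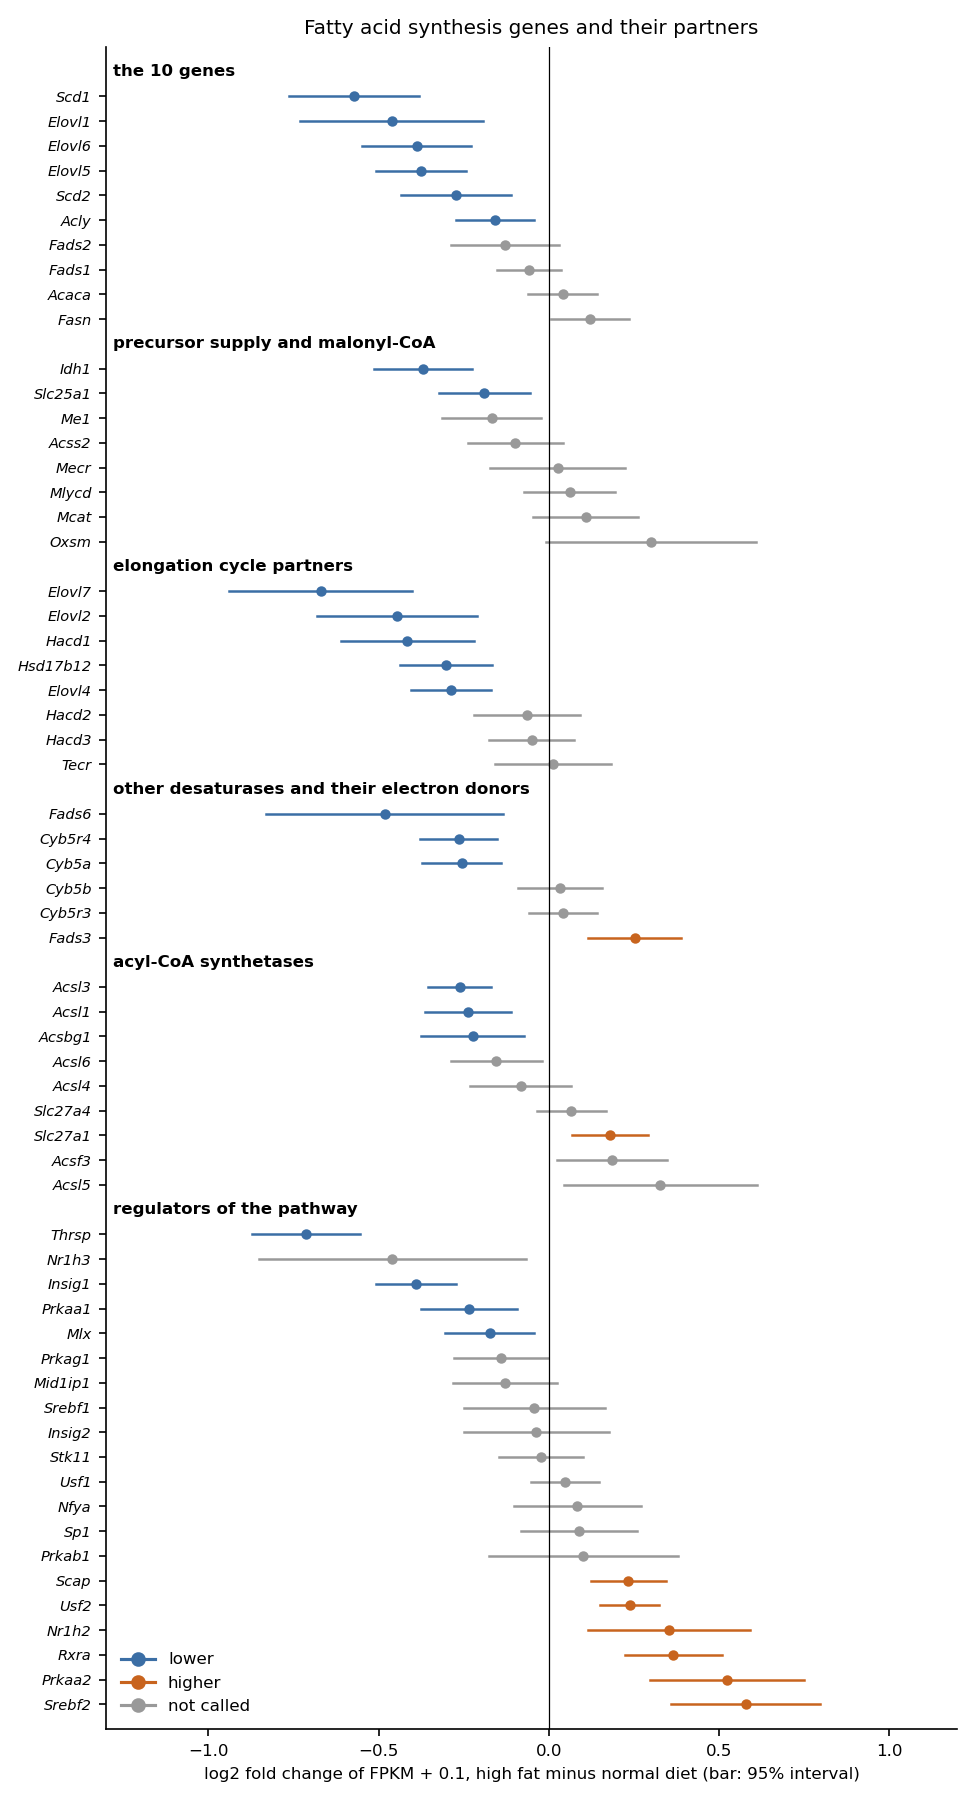
Log2 fold change of FPKM + 0.1 (high fat minus normal diet) with its 95% interval for the 10 genes and the 51 other genes of the pathway, by list, colored by call (blue, lower; orange, higher; grey, not called). Of the 10 genes 6 are lower, and among the regulators 6 are higher and 4 lower.

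Among the 8 tested genes of precursor supply, 2 were lower. Idh1, the cytosolic isocitrate dehydrogenase that yields NADPH, ranged from 19.8 to 20.6 FPKM on the normal diet and from 13.9 to 17.2 FPKM on the high fat diet (log2 fold change -0.37; limma, adjusted p = 0.00326). Slc25a1, which carries citrate out of the mitochondrion to Acly, ranged from 17.3 to 19.0 and from 14.8 to 17.3 FPKM (-0.19; limma, adjusted p = 0.0356).

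The elongation list had 5 of 8 genes lower and none higher. Elovl7 ranged from 4.7 to 6.5 FPKM on the normal diet and from 3.1 to 4.0 FPKM on the high fat diet (log2 fold change -0.67; limma, adjusted p = 0.00360). Elovl2 and Elovl4, which lengthen polyunsaturated and very long chains, had log2 fold changes of -0.45 and -0.29 (limma, adjusted p = 0.0114 and 0.00382). Hsd17b12 and Hacd1, which carry out the reduction and dehydration steps after each Elovl reaction, had log2 fold changes of -0.30 and -0.42 (limma, adjusted p = 0.00553 and 0.00685). With Elovl1, Elovl5 and Elovl6, all 6 of the elongases with values were thus lower. Tecr, which completes the cycle, ranged from 208.7 to 237.7 FPKM on the normal diet and from 201.9 to 247.2 FPKM on the high fat diet (log2 fold change 0.01).

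Of 6 other desaturases and electron donors, 3 were lower and 1 was higher. Cyb5a, the cytochrome that passes electrons to the desaturases, ranged from 43.7 to 50.3 and from 37.6 to 40.8 FPKM (log2 fold change -0.26; limma, adjusted p = 0.00587). Cyb5r4 had a log2 fold change of -0.26 and Fads6 of -0.48 (limma, adjusted p = 0.00469 and 0.0393). Fads3, a relative of Fads1 and Fads2, was the one that rose, from a range of 7.9 to 9.2 FPKM to one of 9.6 to 10.4 FPKM (log2 fold change 0.25; limma, adjusted p = 0.0127).

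The acyl-CoA synthetases, which activate fatty acids by joining them to coenzyme A, had 3 of 9 genes lower and 1 higher. Acsl3 had a log2 fold change of -0.26, Acsl1 of -0.24 and Acsbg1 of -0.22 (limma, adjusted p = 0.00210, 0.0120 and 0.0316). Slc27a1, a fatty acid transport protein, had one of 0.18 (limma, adjusted p = 0.0222).

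The regulators did not move one way: 6 of 20 were higher, 4 lower and 10 did not pass the test. Srebf1, which encodes the SREBP that drives fatty acid genes, measured 11.8, 13.8, 13.8 and 11.8 FPKM on the normal diet and 13.1, 11.7, 14.1 and 10.9 FPKM on the high fat diet. The diets overlapped throughout, with a log2 fold change of -0.04 ± 0.09 (SE; limma, adjusted p = 0.750). Srebf2, which encodes the SREBP that mainly drives cholesterol genes, measured 23.5, 20.6, 19.6 and 25.5 FPKM on the normal diet and 31.5, 33.6, 38.2 and 30.0 FPKM on the high fat diet. It was higher in every high fat diet mouse (log2 fold change 0.58 ± 0.10, SE; limma, adjusted p = 0.00280). Scap, the escort that lets SREBPs leave the endoplasmic reticulum, rose by 0.23 on the log2 scale (limma, adjusted p = 0.00689). Insig1, which holds Scap back and is itself a target of SREBPs, ranged from 31.6 to 34.3 FPKM on the normal diet and from 23.7 to 27.0 FPKM on the high fat diet (log2 fold change -0.39; limma, adjusted p = 0.00120).

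Thrsp, a lipogenic protein induced by thyroid hormone, had the lowest p of the regulators and fell from a range of 15.1 to 18.2 FPKM to one of 9.4 to 10.5 FPKM (log2 fold change -0.71; limma, adjusted p = 0.000489). Of the liver X receptors, which induce Srebf1 and Scd1 in the liver, Nr1h2 rose by 0.35 on the log2 scale (limma, adjusted p = 0.0299) and Nr1h3 had a log2 fold change of -0.46 without passing the test (limma, adjusted p = 0.0697). Their partner Rxra rose by 0.37 and Usf2, an E-box factor, by 0.24 (limma, adjusted p = 0.00303 and 0.00246). Prkaa2, a catalytic subunit of the AMP-activated kinase that switches off acetyl-CoA carboxylase, had a log2 fold change of 0.52 (limma, adjusted p = 0.00484). Prkaa1, the other catalytic subunit, went the other way, from a range of 8.0 to 9.3 FPKM to one of 7.2 to 7.4 FPKM (log2 fold change -0.23; limma, adjusted p = 0.0196), and is named here after its values were seen.

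Some marker lists of other cells and regions also differed between the diets. Of 14 markers of mature oligodendrocytes, 13 were lower on the high fat diet, and their summed FPKM ranged from 2295.8 to 3756.7 on the normal diet and from 1582.9 to 2186.8 on the high fat diet, with none at 0. Within the normal diet, mouse 4 was the lowest of its diet in 14 of 14 oligodendrocyte markers, in 6 of the 6 genes that fell and in 8 of all 10 genes. High fat diet mouse 3 was the highest of its diet in 14 of 14 markers, in 3 of the 6 genes and in 5 of all 10. The order was not particular to this list. Normal diet mouse 4 also had the lowest sum of its diet for striatum (238.8 FPKM), thalamus (26.4), choroid plexus (344.8), blood (239.2) and meningeal fibroblasts (32.4). It had the highest for cortical projection neurons (442.0 FPKM) and neither extreme for the remaining lists. High fat diet mouse 3 was also the highest for striatum (88.9 FPKM), endothelium (84.4) and cortical projection neurons (577.3), and not for the remaining lists. In bulk tissue, fewer cells of a type and less RNA per cell cannot be told apart.

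Regional markers differed as well, between the diets and, for cerebellum and thalamus, also between mice of the normal diet. Whether the samples differed in how much tissue from outside the cortex they held was not tested. All 9 tested markers of striatum were lower, with sums from 238.8 to 440.1 FPKM on the normal diet and from 79.4 to 88.9 FPKM on the high fat diet. The 7 cerebellar markers summed to 17.9, 230.4, 306.6 and 67.1 FPKM in normal diet mice 1 to 4 and to between 9.2 and 11.0 FPKM on the high fat diet, and 2 of them, Gabra6 and Cnpy1, were listed at 0 in high fat diet mouse 1. Normal diet mice 2 and 3, the highest for cerebellum, were also the highest for 7 thalamic markers (97.5 and 81.9 FPKM, against 23.6 to 38.3 FPKM in the other mice). Markers of cortical projection neurons were higher in 7 of 9 (292.1 to 442.0 against 487.2 to 577.3 FPKM). The 10 astrocyte markers, whose sums overlapped (1251.6 to 1396.6 against 1246.5 to 1321.0 FPKM), had 2 higher and 3 lower. Of the other lists, thalamus had 2 of 7 lower, choroid plexus 3 of 7, blood 5 of 5 and meningeal fibroblasts 3 of 6. The list of oligodendrocyte precursors and committed cells had 3 lower and 1 higher of 6. Gpr17, Enpp6 and Lhfpl3 were lower, Cspg4 was higher, and Pdgfra and Bmp4 did not pass the test. Endothelium had 2 lower and 1 higher of 7, and microglia 1 higher of 9. The choroid plexus markers summed to between 344.8 and 731.8 FPKM on the normal diet and to 77.3, 21.4, 28.1 and 945.6 FPKM in high fat diet mice 1 to 4, so that mouse 4 was the highest of all 8 mice and the other 3 lay below every normal diet mouse. Without high fat diet mouse 4, Fasn was called and Acly was not, but Acly was called in only 1 of the 8 fits without 1 mouse.

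**Figure D4:**
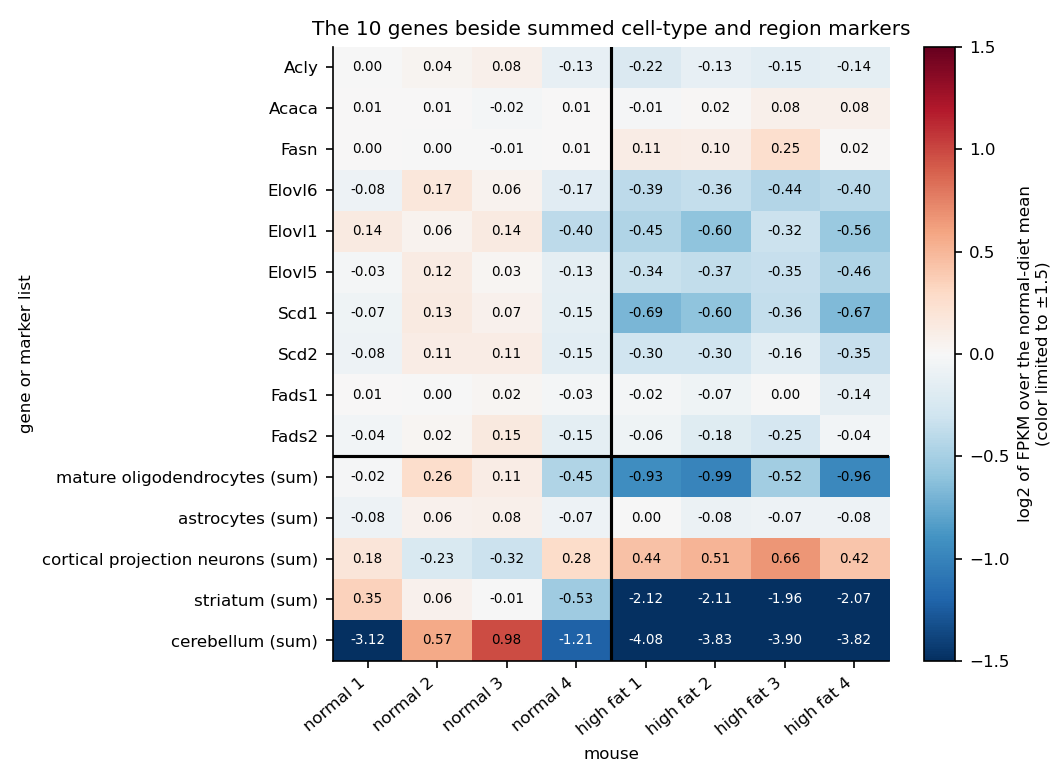
Heat map of log2 FPKM relative to the mean of the normal diet mice, for the 10 genes (top) and for summed markers of 3 cell types and 2 regions (bottom), 1 column per mouse, with each value printed and the color limited to ±1.5. The oligodendrocyte sum is the lowest of the normal diet in mouse 4 (-0.45) and the highest of the high fat diet in mouse 3 (-0.52), and the striatal sum is -1.96 or less in every high fat diet mouse.

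Without normal diet mice 2 and 3, 3 of the 10 genes stayed lower by the same test, Scd1 (log2 fold change -0.47), Elovl5 (-0.30) and Elovl6 (-0.27), where 19.6% of all genes were called. With the cerebellar markers, on a linear scale, as a covariate these 3 genes were again the ones called (-0.46, -0.30 and -0.27), and 17.3% of all genes were. With the mean log2 level of the same markers 0 of the 10 genes were called and 1.56% of all genes, and 2 of the 10 had an unadjusted p under 0.05. The log2 fold changes in that fit were -0.39 ± 0.15 for Scd1, -0.27 ± 0.11 for Elovl5, -0.43 ± 0.24 for Elovl1, -0.19 ± 0.12 for Elovl6, -0.07 ± 0.12 for Scd2 and -0.06 ± 0.09 for Acly (SE). The SE of Elovl1 was thus 0.24 against 0.12 without the covariate, with a fold change close to the -0.46 given above. Those of Scd1, Elovl5, Elovl6, Scd2 and Acly were smaller in size than without it (-0.57, -0.38, -0.39, -0.27 and -0.16). Why the calls were lost was not tested.

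With the mean log2 level of the oligodendrocyte markers as a covariate, 0 of the 10 genes were called in limma and none had an unadjusted p under 0.05, and 0.0429% of all genes were called. The log2 fold changes were then -0.17 ± 0.11 for Scd1, -0.17 ± 0.10 for Elovl5, -0.19 ± 0.14 for Elovl6, 0.04 ± 0.11 for Scd2, 0.11 ± 0.15 for Elovl1 and 0.23 ± 0.10 for Fasn (SE). With the striatal markers 0.0% of all genes were called, 293 having an unadjusted p under 0.05 and none of them one of the 10. The diet accounted for 77.8% of the variation of the oligodendrocyte covariate between mice, 96.0% of the striatal one, 73.8% of the cerebellar one on the log2 scale and 42.9% on the linear scale. The diet and the striatal level therefore cannot be told apart in these 8 mice, and what part oligodendrocyte RNA had in the falls was not tested beyond this fit.

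**Figure D5:**
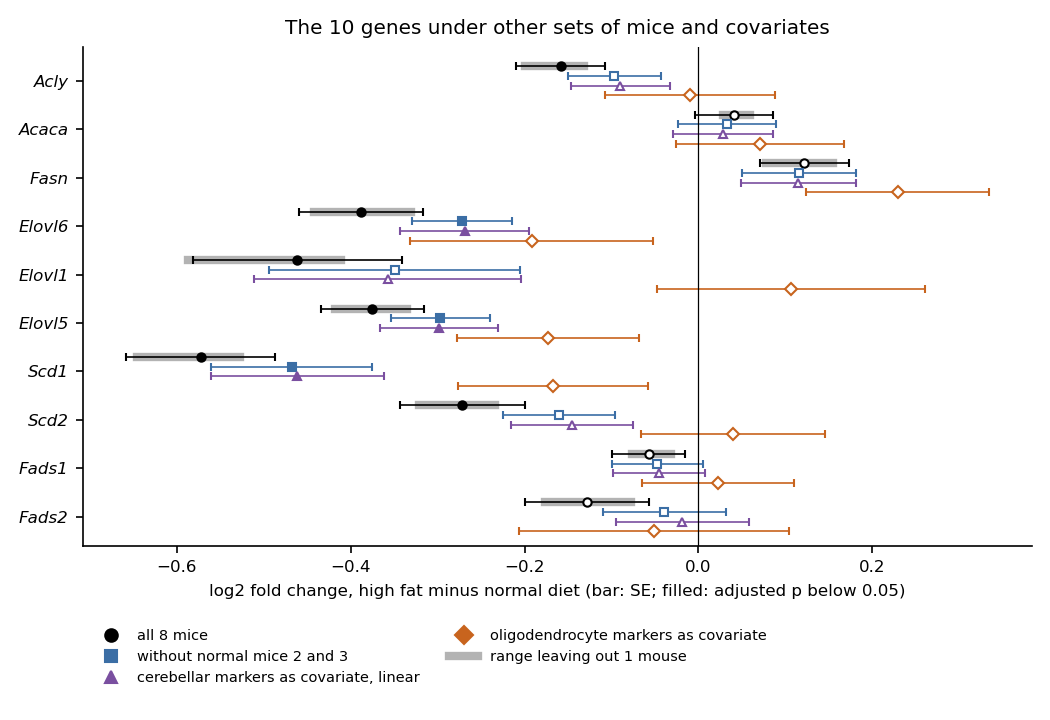
Log2 fold change (high fat minus normal diet) of the 10 genes with its SE, for all 8 mice and 3 other fits, filled where limma's adjusted p was below 0.05, with the range over fits without 1 mouse as a grey bar. Scd1, Elovl5 and Elovl6 are filled in 3 of the 4 fits, and with the oligodendrocyte covariate no gene is.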

How the data were processed

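The authors sequenced rRNA-depleted total RNA of 1 cortex per library (TruSeq stranded kit, paired ends) and checked and trimmed the reads (FastQC, Trimmomatic), used STAR for alignment to the mm10 genome, and quantified GENCODE basic gene models by Cuffnorm. Program versions were not given in the sources used here. Values were deposited by the authors as FPKM rounded to 0.1, without counts, so the sequencing depth is unknown. The summed FPKM of a library ranged from 562431 to 639142, and the median gene was at 9.6 to 9.9 FPKM.

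Here log2(FPKM + 0.1) was fitted in R 4.3.3 by limma 3.58.1, 2-sided and with a trended variance, on the 13982 genes that had no FPKM of 0 and averaged 1 or more (14 genes lay outside), and p-values were adjusted over all of them by the Benjamini-Hochberg method. Fold changes are on that scale, which understates changes of low genes. The code was tested on simulated data. Ratios were tested by exact permutation of the 70 assignments of mice to diets, 2-sided. Replicate numbers did not pair the mice: deviations from the diet means correlated between -0.109 and -0.0275 for equal numbers.

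Members and lists were chosen with earlier results of these data known. All members were to be described, and of each pathway list the called genes, up to 6 by lowest p, beside 12 set regulators, elongases and desaturases with values where present. Covariates of striatal and linear cerebellar markers and the fit without normal diet mice 2 and 3 were added after the data were seen. Positions came from GENCODE M21 on GRCm38, the build of the values, which may differ in detail from the authors' release. Acacb, Elovl3, Hacd4, Scd3, Scd4 and Mlxipl had no value in the data used here.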

Additional observations from a re-analysis of the deposited data

Results flagged for a closer look

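Within a diet, 3 of 80 groups of 4 mice had 1 mouse far from the other 3, by Dixon's test at the 95% level, where chance gives about 1 in 20. Acaca was at 13.4 FPKM in normal diet mouse 3 and at 13.7 FPKM in the other 3, a gap of 3 steps of the rounding. Slc25a1 was at 17.3 FPKM in normal diet mouse 4 and between 18.9 and 19.0 FPKM in the others. Acsl3 was at 64.3 FPKM in high fat diet mouse 2 and between 67.5 and 67.7 FPKM in the others.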

How the results depend on the processing

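The number of members called lower, 6, was 5 to 6 with another added constant, filter, scaling, variance model or the replicate block, and 4 to 6 when 1 mouse was left out. The block lost Acly, gave 21 called pathway genes in place of 25 and changed no other member's call. The number with a change over 50% was 0 to 2 when 1 mouse was left out (1 without normal diet mouse 1 or high fat diet mouse 3, Scd1 and Elovl1 without normal diet mouse 4). The number called lower fell to 3 with linear cerebellar markers or without normal diet mice 2 and 3, and to 0 with log2 cerebellar, oligodendrocyte or striatal markers. The 25 pathway genes called became 14, 1, 0 and 0 with the linear cerebellar, log2 cerebellar, oligodendrocyte and striatal covariates. Several lost calls kept a log2 fold change about as large with a larger SE: with the oligodendrocyte covariate Idh1 was at -0.53 ± 0.13, Elovl2 at -0.53 ± 0.23, Cyb5r4 at -0.27 ± 0.11, Acsl1 at -0.24 ± 0.12 and Hsd17b12 at -0.26 ± 0.13. Others shrank in the same fit, such as Elovl7 (-0.28 ± 0.22), Hacd1 (-0.22 ± 0.18), Elovl4 (-0.19 ± 0.11) and Slc25a1 (-0.05 ± 0.12). The 6 members called lower all shrank or turned sign in it. Both sets of pathway genes are examples, and the cause was not tested.

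Log2 fold changes turned sign as follows, and the cause was not tested. With the striatal covariate, Acly was at 0.15, Elovl1 0.86, Fads1 0.021, Fads2 0.24, Slc25a1 0.14, Elovl7 0.16, Elovl2 0.072, Cyb5a 0.21, Fads3 -0.11, Acsl1 0.064, Slc27a1 -0.075, Srebf1 0.052 and Nr1h3 0.51. With the oligodendrocyte covariate, Elovl1 was at 0.11, Scd2 0.040, Fads1 0.023, Fads6 0.058, Srebf1 0.31 and Nr1h3 0.27. With the log2 cerebellar covariate, Fads2 was at 0.030, Fads6 0.19, Acsbg1 0.011 and Srebf1 0.15. Srebf1 was at 0.089 with the linear one, at 0.070 without normal diet mice 2 and 3, and between -0.10 and 0.019 without 1 mouse. The log2 difference of the Elovl6 to Elovl5 ratio was between -0.037 and 0.0093 without 1 mouse. The ratio of Scd2 to Scd1 kept its sign in all of its alternatives, from 0.27 to 0.34, and pairing by number cannot give a p under 0.125. FPKM without counts gives no depth, so no counting error could be set beside a value.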
